A study of Mus musculus with 38 samples.

Results

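The Rab small GTPases were read as ribosome footprints in mouse cortical neurons, from whole-cell inputs and from pulldowns of biotinylated ribosome complexes. The members were the protein-coding genes whose symbol is Rab followed by a number, with an optional letter and digit, and there were 59 of them among 21869 protein-coding genes. Their coding sequences (CDSs) ran from 171 to 2178 nt with a median of 648 nt, and 55 of the 59 lay between 550 and 900 nt, so that footprint counts of members were compared with those of other genes of 600 to 780 nt. By textbook roles, 14 members serve the endoplasmic reticulum and Golgi, 8 synaptic vesicles and regulated exocytosis, 7 early endosomes, 14 recycling endosomes and post-Golgi delivery, 10 late endosomes, lysosomes and autophagy and 2 cilia, and 4 were left as other. Each gene was read on its longest transcript, which was also the one with the highest count in 49 of the 59. In the KCl experiment 48 members passed the filter on low counts. The 11 that did not pass (Rab7b, Rab13, Rab17, Rab19, Rab20, Rab25, Rab27a, Rab32, Rab37, Rab38 and Rab44) had 4 to 196 CDS counts over all 38 libraries, and the counts of that experiment leave them out. Of these 11, Rab32 and Rab7b were tested in knockdown comparisons and Rab13 with DHPG inputs, and none of them was called there.

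Rab proteins are molecular switches. An exchange factor loads a Rab with GTP, the loaded Rab recruits effectors such as tethers, motors and sorting adaptors to one kind of membrane, and a GTPase activating protein ends the signal by helping it to hydrolyse GTP. Each Rab is prenylated on cysteines near its C-terminal end, which anchors it in the membrane. The Rab escort protein presents new Rabs for prenylation, and GDP dissociation inhibitor extracts them from the membrane. In neurons, Rab3 proteins ride on synaptic vesicles, Rab5 and Rab11 proteins act in endocytosis and receptor recycling, Rab7 in degradation, and Rab1, Rab2 and Rab6 proteins in secretory traffic.

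The study joined proximity labelling with ribosome profiling, in which the mRNA fragments that ribosomes protect are sequenced. Primary cortical cultures from embryonic CD-1 mice carried a doxycycline-inducible lentiviral TurboID, a biotin ligase, as TurboID-PSD95, which parts of the postsynaptic protein PSD95 direct to dendrites and synapses, or as Pan-TurboID, which has no localization signal. Every culture received cycloheximide for 2 min and biotin, for 30 min according to the labels (the methods give a shorter time for DHPG cultures, and the files do not settle it), and gave an input and a streptavidin pulldown. The 14 groups were inputs and pulldowns of both baits at rest and after KCl (8 groups of 3 libraries), of TurboID-PSD95 neurons given DHPG (2 groups of 3), and of TurboID-PSD95 neurons given siRNA against eIF4G2, at rest and after KCl (4 groups of 2). Depolarized neurons were silenced with tetrodotoxin and DL-AP5 for 2 h, held in 55 mM KCl for 1 h and left to rest for 30 min. DHPG, which activates the metabotropic glutamate receptors mGluR1 and mGluR5, was given at 100 µM for 10 min after the same silencing, and siRNA at 20 nM for 72 h. The description labels of DHPG inputs and of knockdown libraries mention cytosol, but the labels name TurboID-PSD95 as their virus, and that was followed here. Neurons with a control siRNA were not analysed here, and the DHPG experiment has no resting group of its own.

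Footprints cannot show prenylation, but the CDSs they were counted in encode its sites. The last 27 bases of 6 CDSs of the mm10 assembly, stop codon included, are shown because these members carry many of the results and stand for the ways in which a Rab ends. Capitals mark cysteine codons (TGC or TGT).
Rab3a (chr8:70758062-70758088, plus strand): ccacctcatcaggatTGTgccTGCtga
Rab6b (chr9:103181220-103181246, plus strand): gccagcgagggcggcTGCtccTGTtaa
Rab2a (chr4:8606477-8606503, plus strand): cagcaggcagggggaggcTGCTGTtga
Rab5a (chr17:53506403-53506429, plus strand): gccagaagccagTGTTGTagtaactga
Rab11a (chr9:64716849-64716875, minus strand): aaggtgcagTGCTGTcagaacatctaa
Rab8a (chr8:72180111-72180137, plus strand): agcttcttccggTGCagtctcctgtga
Rab3a and Rab6b end on cysteine, any residue, cysteine, which 19 of the 57 members read share. Rab2a ends on a pair of cysteines, as do 15 members, and Rab5a has its pair 2 codons further in, as do 6. In 12 other members the fourth codon from the end is a cysteine and the 3 after it are not, with a further cysteine before it in Rab11a and none in Rab8a. In 3 members a pair is followed by 1 codon. In all, 49 of 57 members had 2 cysteine codons among the last 5. Rab23 and Rab40c had none on the longest transcript, which in both is not the one with the highest count. That of Rab40c has a CDS of 171 nt.

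Libraries held 5906281 to 35643247 counts in all and 2048604 to 14646402 in CDSs, and members took 0.289% to 0.422% of CDS counts in the group means. This was 6518 to 55290 Rab counts per library. Levels are given as CDS counts scaled to the library's CDS total after TMM adjustment over all 38 libraries (CPM). Between genes they are given as CPM per kb of CDS. Markers of neurons summed to 5554 to 10326 CPM in inputs of the KCl experiment, those of astrocytes to 503 to 1094 CPM and those of microglia to 0.687 to 4.39 CPM. As a check of the knockdown, Eif4g2 was at 269.1 and 268.6 CPM in the resting knockdown inputs and at 503 to 549.7 CPM in untreated resting TurboID-PSD95 inputs. As a check of the bait, Dlg4, which encodes PSD95, had a log2 fold change of pulldown over input of 4.09 with TurboID-PSD95 and 0.04 with Pan-TurboID, reads of the construct included.

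Rab levels at rest spanned a wide range. In the 3 resting TurboID-PSD95 inputs the density was highest for Rab6b, a neuronal Golgi Rab, at 616 ± 32.0 CPM per kb (SD, n = 3), and next for Rab3a, the main synaptic vesicle Rab, at 541 ± 32.8 CPM per kb. Rab11a of recycling endosomes followed at 341 ± 48.8 CPM per kb, ahead of Rab1a, which acts between the endoplasmic reticulum and Golgi, at 247 ± 14.6 and Rab6a, the ubiquitous relative of Rab6b, at 228 ± 21.6 CPM per kb. The 3 libraries of Rab6b (649, 614 and 585 CPM per kb) lay above all those of Rab3a (504, 566 and 553 CPM per kb). Rab1a and Rab6a overlapped. The median over the 48 members tested was 47.7 CPM per kb, against 17.5 CPM per kb over all 13019 genes tested. Over all 59 members it was 25.4 CPM per kb, or 35.7 CPM per kb where each gene was read on its transcript with the highest count.

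**Figure D1:**
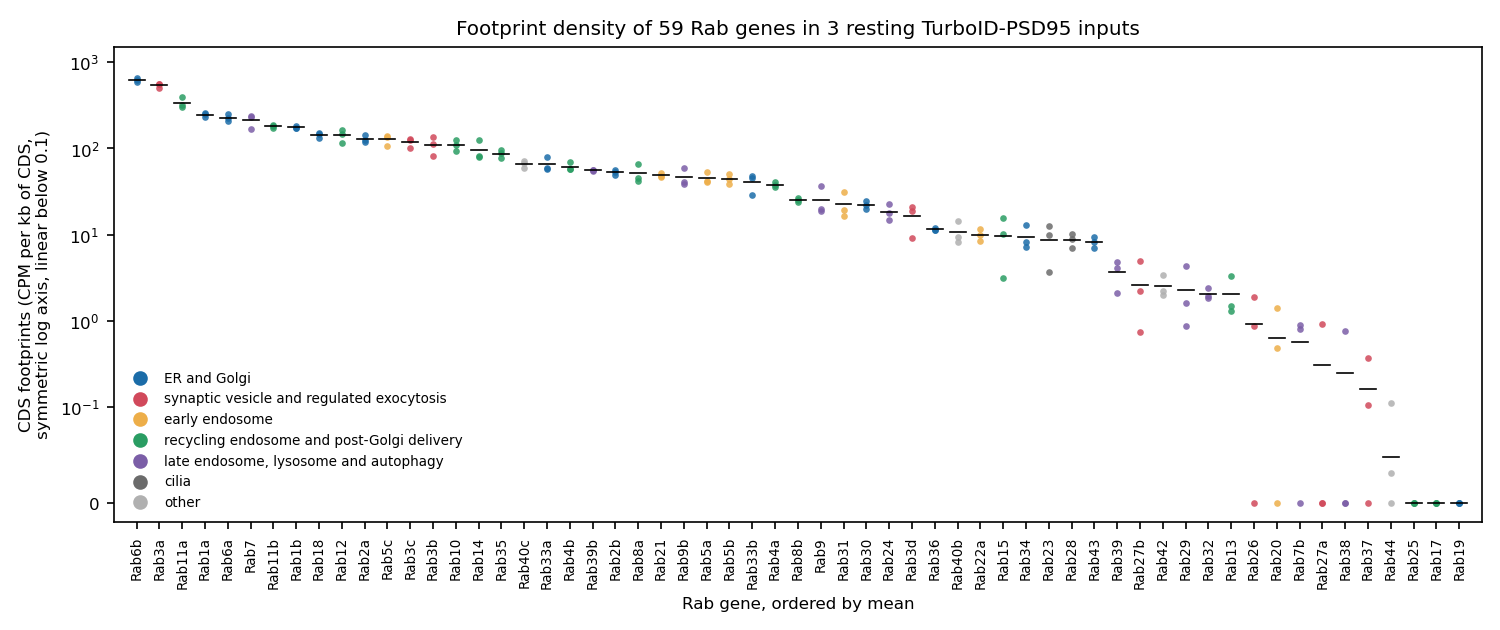
Footprint density of the 59 Rab genes in CPM per kb of CDS, on a symmetric log axis, in the 3 resting TurboID-PSD95 inputs. Points are libraries, black lines their means and colours the textbook role. Rab6b and Rab3a stand at the left at 616 and 541 CPM per kb, and Rab25, Rab17 and Rab19 at the right at 0.

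At the other end, Rab25, Rab17 and Rab19 had no count in any of these 3 inputs. A count of 0 allows up to 3 counts, which is 0.315 to 1.15 CPM per kb for these genes, an interval that covers counting error alone. Rab17 and Rab25 are known from epithelia. Rab27a, which docks secretory granules in many cells, had 0 to 0.618 CPM in the 6 resting inputs of both baits and was not tested, while Rab27b had 0.491 to 3.23 CPM there.
Within paralogue groups 1 member usually led. Of the summed density of the 4 Rab3 genes, Rab3a held 68.8% ± 3.80 (SD, n = 3) in resting TurboID-PSD95 inputs, and its mean share in the 14 groups ran from 61.6% to 74.2%. Rab3c was at 119 ± 14.4, Rab3b at 110.3 ± 26.3 and Rab3d at 16.4 ± 6.48 CPM per kb, and the libraries of Rab3b and Rab3c overlapped. Rab5c led the Rab5 genes of early endosomes with 128 ± 18.6 CPM per kb, above Rab5a (45.4 ± 7.13) and Rab5b (44.4 ± 5.91), which overlapped each other. Rab11a exceeded Rab11b (182 ± 7.31 CPM per kb) in each library. Rab7, which directs late endosomes to lysosomes, was at 213 ± 38.8 CPM per kb.

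Beyond these groups, the recycling members Rab12 (141 ± 23.4 CPM per kb), Rab10 (109 ± 14.7), Rab14 (96.0 ± 25.5) and Rab35 (86.9 ± 9.40), which recycles endosomal cargo, were abundant. In the secretory pathway Rab1b (177 ± 5.80 CPM per kb), Rab18 (144 ± 9.59) and Rab2a (130.2 ± 12.8) followed Rab6b, Rab1a and Rab6a, and Rab2b (53.5 ± 3.72) lay below Rab2a in each library. Among late endosomal members Rab7 was followed by Rab39b (55.7 ± 0.892 CPM per kb) and Rab9b (46.3 ± 11.9), which returns receptors to the Golgi. Rab23 and Rab28, both tied to cilia, were at 8.73 ± 4.55 and 8.69 ± 1.55 CPM per kb and overlapped. Rab26 and Rab37, known from secretory granules, stood at 0.920 ± 0.942 and 0.161 ± 0.195 CPM per kb. The values of Rab26 and Rab23 depend on the transcript. Over all 38 libraries Rab26 had 201 counts on the 783 nt read here and 974 on the 594 nt of its transcript with the highest count. Rab23 had 329 counts on 195 nt and 2638 on 714 nt.

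Roles took different parts of the Rab footprints in inputs and pulldowns. In resting TurboID-PSD95 inputs 38.7% ± 0.388 (SD, n = 3) of Rab CDS counts fell on members of the endoplasmic reticulum and Golgi, 26.8% ± 0.487 (SD, n = 3) on those of recycling and 18.4% ± 0.968 (SD, n = 3) on those of synaptic vesicles. In the pulldowns of these neurons synaptic vesicle members took 23.0% ± 0.837 (SD, n = 3) and recycling members 23.9% ± 0.406 (SD, n = 3). For both roles the inputs and pulldowns did not overlap. With untargeted Pan-TurboID at rest, synaptic vesicle members took 17.6% to 19.9% in inputs and 21.2% to 25.6% in pulldowns, again without overlap. After DHPG synaptic vesicle members held 24.7% ± 0.519 (SD, n = 3) in inputs and 31.1% ± 1.54 (SD, n = 3) in pulldowns, again without overlap. In depolarized TurboID-PSD95 neurons their shares overlapped, at 15.5% to 19.4% in inputs and 17.2% to 19.6% in pulldowns. No test was made of these shares.

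Pulldown over input asks which footprints were taken up with biotinylated complexes beyond their share of the cell. With TurboID-PSD95 at rest, 17 of 48 members rose in the pulldown and none fell, where 14.2% of all genes were called, 6.93% higher and 7.24% lower, of 13019 tested. The members' median log2 fold change was 0.66, against -0.10 over the 1034 other genes with a CDS of 600 to 780 nt. Rab3a, Rab3b, Rab3c and Rab3d of synaptic vesicles and Rab5a, Rab5b, Rab5c and Rab21 of early endosomes were among the 17, as were Rab2a, Rab6a, Rab6b and Rab34 of the secretory pathway, Rab10, Rab11b, Rab14 and Rab15 of recycling and Rab7. Rab34 was not called on its transcript with the highest count (0.78). These values are relative to genes of the same length, because pulldowns held fewer footprints on short CDSs. Before the length trend of each library was taken out, the other genes of 600 to 780 nt had a median of -0.64 and the members one of 0.06. Marker genes of excitatory neurons moved as well, with 2 of 4 higher (median 0.78), while 1 of 6 general neuronal markers (median -0.0023) and 1 of 2 vascular ones tested were lower and none of 6 astrocyte markers was called. Their part in the Rab values was not tested.

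Rab3a held 334, 375 and 367 CPM in the 3 inputs and 505, 505 and 615 CPM in the 3 pulldowns. All pulldowns lay above all inputs, and with the length trend removed the log2 fold change was 1.12 ± 0.19 (SE, edgeR adjusted p = 0.00113). Rab2a, which acts in Golgi and late endosomal traffic, held 92.2, 76.3 and 81.1 CPM in inputs and 123, 122 and 122 CPM in pulldowns, again without overlap, and its log2 fold change was 1.10 ± 0.20 (SE, edgeR adjusted p = 0.00167). Rab5a, which drives fusion of early endosomes, went from 34.7, 27.2 and 26.3 CPM to 56.1, 42.6 and 65.2 CPM, and its groups did not overlap either. Its log2 fold change was 1.42 ± 0.32 (SE, edgeR adjusted p = 0.00495). Rab3c gave 1.10 ± 0.25 (SE, edgeR adjusted p = 0.00509). Rab12, linked to degradation of recycling receptors, went the other way in CPM, at 101, 142 and 129 in inputs and 61.4, 82.3 and 72.4 in pulldowns. These groups did not overlap, but with the length trend removed the log2 fold change, -0.51 ± 0.23 (SE), did not pass the test (edgeR adjusted p = 0.136).

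By role, 4 of 6 synaptic vesicle members tested rose (median log2 fold change 1.11), 4 of 6 of early endosomes (0.96), 4 of 11 of recycling (0.66), 4 of 13 of the endoplasmic reticulum and Golgi (0.62) and 1 of 7 of late endosomes and lysosomes (0.61), beside a median of 0.00 over all genes. With pulldown and input of the same number as a pair, 27 members were higher and 1 lower, Rab12, where 26.1% of all genes were called. Without the length correction 5 members were higher and 2 lower (Rab12 and Rab40c), with 25% of all genes called, although 43 of 48 members still lay above the median of genes of their length. Without replicate 2 the count was 6 and without replicate 3 no member was called, with 3.60% and 0.00757% of all genes called.

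Set against the 1034 other genes of their length, members ranked from low to nearly the top. The fold change of Rab14 was above that of 98.8% of those genes, with 81.3, 53.5 and 51.8 CPM in inputs and 148, 119 and 178 CPM in pulldowns, and log2 fold change 1.79 ± 0.41 (SE, edgeR adjusted p = 0.00900). Rab15, a recycling Rab of neurons, was above 97.3%, Rab10 above 94.1% and Rab3b above 94.3%. Rab11a was above 75.5% and was not called (0.39 ± 0.22 SE), whereas Rab11b rose (log2 fold change 0.63 ± 0.19 SE, edgeR adjusted p = 0.0263). Rab6b (log2 fold change 1.07 ± 0.25 SE, edgeR adjusted p = 0.00673) and Rab6a (log2 fold change 0.74 ± 0.24 SE, edgeR adjusted p = 0.0380) both rose. At the lower end were Rab42, at 3.58% and few counts, Rab12 at 20.5% and Rab39 at 48.5%. These ranks are a description of the libraries.

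**Figure D2:**
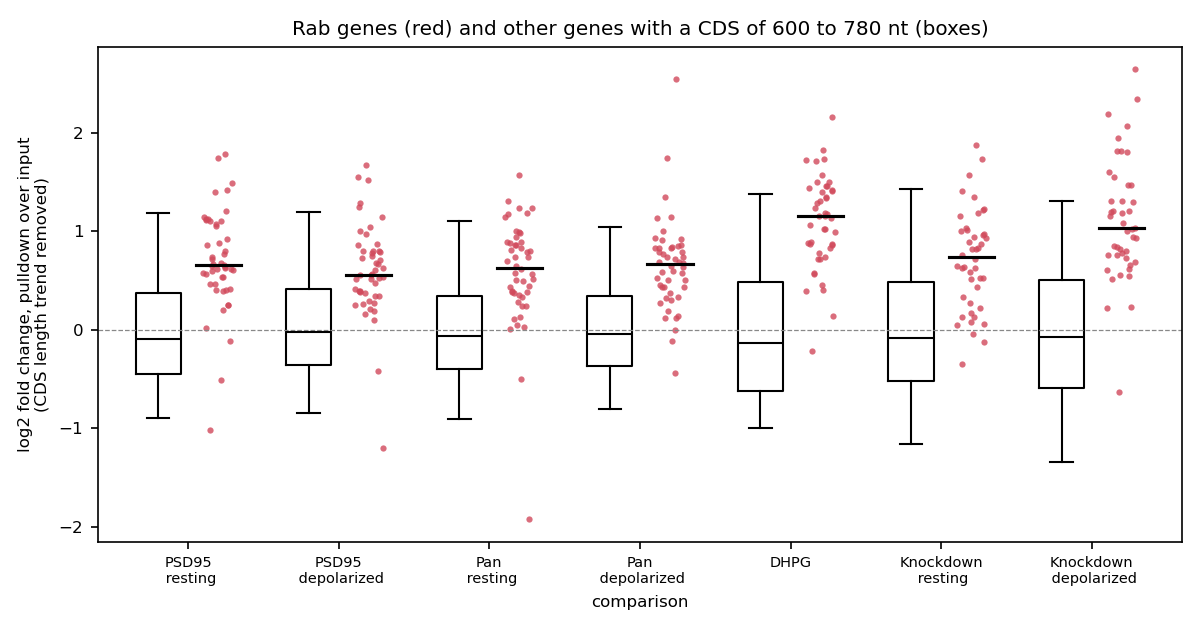
Log2 fold change of pulldown over input with the CDS length trend removed, in 7 comparisons. Boxes show the quartiles of other genes with a CDS of 600 to 780 nt, with whiskers at their percentiles 5 and 95, red points are Rab genes and thick lines their medians. The members' medians run from 0.56 to 1.15, and those of the other genes from -0.14 to -0.02.

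Members were also high in pulldowns of Pan-TurboID, which is not targeted to dendrites. At rest 4 of 48 rose (Rab3a, Rab2a, Rab6b and Rab36) and none fell, where 3.03% of all genes were called, 1.64% higher and 1.40% lower. Rab3a held 317, 303 and 396 CPM in these inputs and 434, 472 and 487 CPM in the pulldowns, without overlap, and the log2 fold change was 0.88 ± 0.19 (SE, edgeR adjusted p = 0.0219). Rab6b gave 0.99 ± 0.25 (SE, edgeR adjusted p = 0.0341), Rab2a 0.88 ± 0.20 (SE, edgeR adjusted p = 0.0270), and Rab36, a Golgi Rab of low level, 1.31 ± 0.36 (SE, edgeR adjusted p = 0.0446). The members' median was 0.63 against -0.06 for genes of their length, and 46 of 48 members lay above that reference. With pulldown and input paired, 21 members were higher and 1 lower, with 18.2% of all genes called. No member was called without replicate 2 or without replicate 3, where 0% of all genes were, nor without the length correction, where 9.60% were.

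After depolarization, fewer members passed in the fit without pairs, with medians of like size. With TurboID-PSD95, Rab2a (log2 fold change 0.80 ± 0.20 SE, edgeR adjusted p = 0.0227) and Rab4b, an early recycling Rab most of whose CDS is shared with another annotated gene (log2 fold change 0.97 ± 0.27 SE, edgeR adjusted p = 0.0328), rose, where 5.26% of all genes were called, 3.16% higher and 2.10% lower, and the members' median was 0.56 against -0.02. With Pan-TurboID 1 member, Rab3a, was called (log2 fold change 0.68 ± 0.19 SE, edgeR adjusted p = 0.0496), where 2.64% of all genes were called, 1.40% higher and 1.24% lower, and the median was 0.66 against -0.05. The paired fit called 19 members with TurboID-PSD95 and 20 with Pan-TurboID, all higher, with 18.9% and 17.0% of all genes called. With both baits the drop in count from rest was smaller in the paired fit, so its size depends on the pairing. In each of these comparisons 46 of 48 members lay above the median of genes of their length. Without the length correction no member was called in either, with 12.6% and 8.83% of all genes called. Leaving out replicate 1, 2 or 3 left 0 to 1 members with TurboID-PSD95 (0.440%, 4.08% and 0.0151% of all genes called) and 0 with Pan-TurboID (0.0386%, 0% and 0%). In both pulldowns 1 of 4 excitatory neuron markers was higher, and with TurboID-PSD95 1 of 6 general neuronal ones was lower.

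Whether TurboID-PSD95 enriched members beyond Pan-TurboID was tested as a difference of fold changes, each averaged over resting and depolarized neurons. No member passed by edgeR's quasi-likelihood test, by its likelihood ratio test or by DESeq2. In the first, none had an unadjusted p under 0.05 and 0% of all genes were called. Dlg4, the check of the bait, was not called either, at 4.25 ± 0.65 (SE, edgeR adjusted p = 0.0755). A test that misses a difference of that size cannot decide whether members differ between the baits. The difference was smallest in p for Rab10, which carries receptors to the plasma membrane, at 0.52 ± 0.27 (SE) on the log2 scale. For all members it ran from -0.78 to 0.53, with a median of 0.06. Whether KCl changed the TurboID-PSD95 enrichment was tested as a difference of fold changes between depolarized and resting neurons. Again no member passed by any of these tests. In the quasi-likelihood test 1 member had an unadjusted p under 0.05 and 0% of all genes were called. That member was Rab3a, with a difference of -0.57 ± 0.27 (SE), and the members' median was -0.18, with 14 of 48 above 0. By replicate this median was 0.08, -0.13 and -0.43, with 26, 21 and 8 of 48 above 0.

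**Figure D3:**
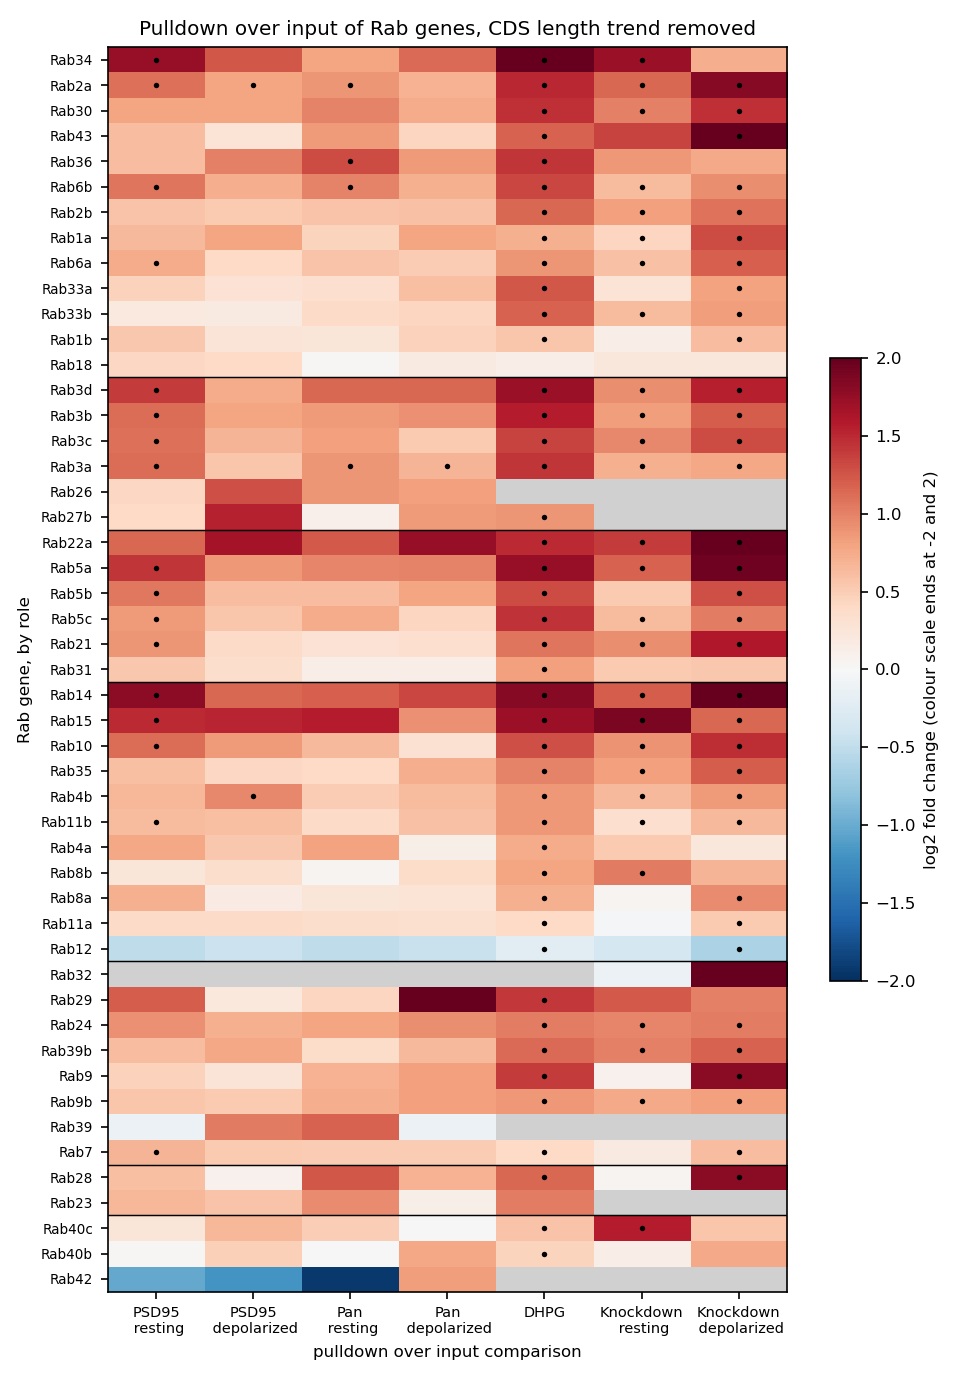
Log2 fold change of pulldown over input for each Rab gene tested (rows, grouped by role and ordered by mean) in 7 comparisons (columns), with the CDS length trend removed. Black dots mark an adjusted p under 0.05 and grey cells genes not tested. Nearly all cells are red, and the row of Rab12 is blue throughout, at -0.51 with TurboID-PSD95 at rest and -0.22 after DHPG.

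In DHPG-treated neurons, 42 of 45 members tested rose in the pulldown and 1, Rab12, fell. In this experiment 67.0% of all genes were called, 34.6% higher and 32.5% lower. Its input replicates differed far less than those of the KCl experiment (chi-square per gene 1.48 to 1.90 against 8.61 to 47.5). Counts of calls and p values are therefore not comparable between these experiments. Rab3a held 749, 755 and 739 CPM in inputs and 1179.5, 1075 and 1221 CPM in pulldowns. All pulldowns lay above all inputs, and its log2 fold change was 1.42 ± 0.06 (SE, edgeR adjusted p = 5.96e-13). Rab6b gave 1.33 ± 0.06 (SE), Rab3b 1.57 ± 0.07 (SE) and Rab14, which sorts between Golgi and endosomes, 1.82 ± 0.09 (SE), each with an edgeR adjusted p of at most 3.29e-12. Rab12 held 109, 106 and 106 CPM in inputs and 65.3, 67.2 and 71.2 CPM in pulldowns, without overlap, for -0.22 ± 0.07 (SE, edgeR adjusted p = 0.0128). The members' median was 1.15 against -0.14 for genes of their length, and 44 of 45 lay above that reference. The directions depend on the length correction. Without it 22 were higher and 7 lower, with 79.8% of all genes called. Of the 43 members called, 12 then lay on the other side of 0, and 5 of these were called lower (Rab1a, Rab1b, Rab7, Rab11a and Rab40c), although 44 of 45 lay above genes of their length. Markers moved as well. Of 3 inhibitory neuron markers 3 were higher, of 4 excitatory ones 3 were higher and 1 lower, of 6 general neuronal ones 1 was higher and 4 lower, and of 5 of the oligodendrocyte lineage 1 was higher and 4 lower. Of 5 astrocyte markers 2 were higher and 1 lower, the 1 microglial marker tested was higher and the 1 vascular marker lower. Their part in the Rab values was not tested.

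After siRNA against eIF4G2, with 2 libraries a group, 27 of 44 members rose in the resting pulldown and none fell, where 32.8% of all genes were called, 16.2% higher and 16.6% lower. After KCl 33 rose and 1 fell, where 35.1% of all genes were called, 17.5% higher and 17.6% lower. Rab14 held 96.0 and 107 CPM in resting inputs and 173 and 137 CPM in resting pulldowns, and 82.7 and 78.1 against 222 and 198 CPM after KCl. Its groups did not overlap, and its log2 fold changes were 1.22 ± 0.13 (SE, edgeR adjusted p = 8.42e-08) at rest and 2.07 ± 0.14 (SE, edgeR adjusted p = 1.81e-11) after KCl. Rab2a gave 1.16 ± 0.13 (SE) and 1.81 ± 0.14 (SE). At rest Rab3a (0.71 ± 0.10 SE) and Rab3c (0.96 ± 0.15 SE) came next by p, and after KCl Rab1a (1.30 ± 0.12 SE) and Rab6a (1.20 ± 0.12 SE), each with an edgeR adjusted p of at most 1.43e-05. After KCl Rab12 was lower in the pulldown than in the input by 0.63 on the log2 scale (SE 0.18). Rab34 and Rab40c were called at rest, but not on their transcripts with the highest count. Medians were 0.73 and 1.03, against -0.09 and -0.07 for genes of their length. Without the length correction 5 members were higher and 6 lower at rest (45.5% of all genes called) and 13 higher and 3 lower after KCl (48.8%), and 4 of the members called at rest and 5 of those called after KCl lay below 0 without being called there. Leaving out 1 replicate number, which left single libraries that were assumed to vary like the knockdown groups not compared, gave 14 members at rest without replicate 1 and 12 without replicate 2 (16.1% and 16.0% of all genes called), and 28 and 22 after KCl (24.4% and 25.2%). At rest 3 of 3 inhibitory neuron markers were higher, 2 of 4 excitatory ones were higher and 1 lower, 2 of 6 general neuronal ones were lower, 1 of 6 astrocyte ones was higher and 1 lower, 1 of 6 of the oligodendrocyte lineage was lower and 2 of 2 vascular ones were lower. After KCl 2 of 3 inhibitory markers were higher, 2 of 4 excitatory ones were higher and 1 lower, 1 of 6 general neuronal ones was higher and 1 lower, 2 of 6 astrocyte ones were higher and 2 lower, and 3 of 6 of the oligodendrocyte lineage, 1 of 3 microglial and 1 of 2 vascular ones were lower. The part of these markers in the Rab values was not tested.

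Over the 7 comparisons, Rab2a and Rab3a were called higher in 6 and Rab6b in 5. Of all members Rab12 alone was below 0 in all 7. By replicate, in resting TurboID-PSD95 libraries, the median of 48 members was 0.68, 0.54 and 1.05, and that of genes of equal length -0.09, -0.08 and -0.08. Rab3a gave 1.07, 0.91 and 1.34 in these replicates, Rab14 1.36, 1.65 and 2.40 and Rab12 -0.50, -0.52 and -0.52.

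Depolarization asks which members gained or lost footprints after silencing and 1 h of KCl. The labels of resting neurons name no silencing, so KCl and silencing cannot be told apart in these comparisons. In the 12 inputs of both baits, 10 of 48 members rose and 1 fell, where 15.4% of all genes were called, 6.32% higher and 9.03% lower. The members' median log2 fold change was 0.22, against 0.16 for genes of 600 to 780 nt and -0.01 over all genes. Those that rose were Rab1b, Rab2b, Rab8a, Rab8b, Rab18, Rab33a, Rab33b, Rab39b, Rab40c and Rab5b, and Rab34 fell. No synaptic vesicle member was called. In these footprints a change in mRNA level and a change in its translation cannot be told apart, nor fewer cells of a type from less RNA per cell.

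Rab39b, a neuronal Rab tied to traffic of glutamate receptors, held 35.9, 36.3 and 35.1 CPM in resting TurboID-PSD95 inputs and 85.2, 63.3 and 73.7 CPM after KCl. With Pan-TurboID it held 40.6, 41.9 and 34.7 CPM at rest and 54.6, 42.1 and 73.2 CPM after KCl. Depolarized libraries lay above resting ones with both baits, narrowly with Pan-TurboID, and the log2 fold change was 0.76 ± 0.17 (SE, edgeR adjusted p = 0.00275). Rab2b, the less abundant relative of Rab2a, went from 34.0, 29.6 and 33.5 to 46.8, 45.2 and 48.4 CPM with Pan-TurboID, without overlap, for 0.57 ± 0.13 (SE, edgeR adjusted p = 0.00432). Rab8a, which delivers post-Golgi cargo, gave 0.52 ± 0.15 (SE, edgeR adjusted p = 0.0210), and Rab33a, linked to axonal vesicles, 0.49 ± 0.15 (SE, edgeR adjusted p = 0.0258). Rab34, which acts at Golgi, lysosomes and cilia, held 6.46, 10.2 and 5.65 CPM at rest and 0.856, 4.19 and 4.82 CPM after KCl with TurboID-PSD95, for -0.96 ± 0.32 (SE, edgeR adjusted p = 0.0414). These groups did not overlap, at levels of a few CPM, and on its transcript with the highest count Rab34 gave -0.71 and was not called. Of the other members that rose, Rab40c reached 0.88 ± 0.27 (SE), Rab33b 0.58 ± 0.20 SE, Rab8b 0.58 ± 0.19 SE, Rab1b, which acts early in secretion, 0.43 ± 0.13 SE and Rab18 0.35 ± 0.12 SE. Rab40c was read on a CDS of 171 nt with 2703 counts over all 38 libraries. Its transcript with the highest count had 12572 on 846 nt.

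By role, 5 of 13 members of the endoplasmic reticulum and Golgi rose and 1 fell (median 0.35). Of the 11 of recycling 2 rose (0.26), of the 6 of early endosomes 1 (0.24) and of the 7 of late endosomes and lysosomes 1 (0.01), while the 6 synaptic vesicle members had a median of 0.06. Of the 1034 other genes of 600 to 780 nt, 84 rose and 13 fell.

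**Figure D4:**
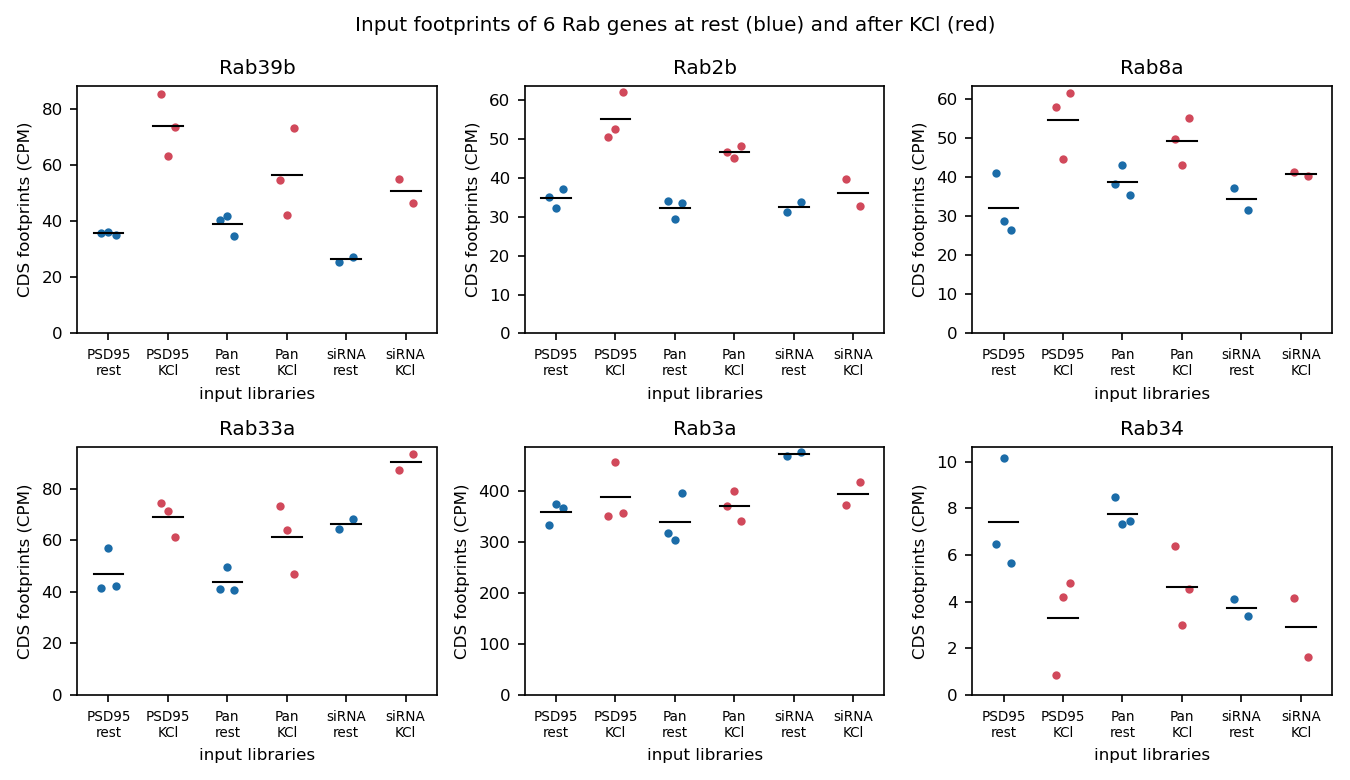
CPM of 6 Rab genes in input libraries of TurboID-PSD95, Pan-TurboID and eIF4G2 siRNA neurons, at rest (blue) and after KCl (red). Points are libraries, lines are group means and each vertical axis starts at 0. Rab39b lies at 35.1 to 36.3 CPM at rest and at 63.3 to 85.2 CPM after KCl with TurboID-PSD95, while the Rab3a groups of this bait overlap.

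Among the paralogues, Rab5b rose (log2 fold change 0.53 ± 0.17 SE, edgeR adjusted p = 0.0318), while Rab5a (0.24 ± 0.20 SE) and Rab5c (0.34 ± 0.14 SE) were not called. None of the Rab3 genes was called, with log2 fold changes of 0.09 ± 0.13 (SE) for Rab3a, 0.35 ± 0.15 (SE) for Rab3b, 0.40 ± 0.15 (SE) for Rab3c and 0.03 ± 0.25 (SE) for Rab3d. Rab11a (0.14 ± 0.14 SE), Rab11b (0.28 ± 0.11 SE), Rab27b (-0.01 ± 0.64 SE) and Rab7 (0.15 ± 0.15 SE) were not called either. The count depends on CDS length and on replicates. With the length trend of each library removed, 2 members were called, Rab39b (0.58) and Rab34 (-1.07), with 13.8% of all genes called. Without replicate 1, 2 or 3 the count was 6, 3 and 0, with 16.2%, 6.93% and 3.91% of all genes called. Of 6 general neuronal markers 2 were lower in these inputs and of 4 excitatory ones 1, no other marker tested was called, and their part in the Rab values was not tested.

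In TurboID-PSD95 pulldowns 4 members rose and Rab34 fell, where 6.60% of all genes were called, 3.32% higher and 3.28% lower. Rab39b held 35.2, 39.9 and 37.9 CPM at rest and 103, 63.3 and 87.9 CPM after KCl, without overlap, for 1.18 ± 0.24 (SE, edgeR adjusted p = 0.00353). Rab18, which acts at lipid droplets and the endoplasmic reticulum, gave 0.61 ± 0.17 (SE, edgeR adjusted p = 0.0274), Rab40c, whose SOCS box binds a ubiquitin ligase, 1.44 ± 0.42 (SE, edgeR adjusted p = 0.0355), Rab2b 0.64 ± 0.19 (SE, edgeR adjusted p = 0.0408) and Rab34 -1.53 ± 0.44 (SE, edgeR adjusted p = 0.0357). In Pan-TurboID pulldowns 3 members rose, Rab1b (log2 fold change 0.67 ± 0.19 SE, edgeR adjusted p = 0.0324), Rab33a (log2 fold change 0.75 ± 0.21 SE, edgeR adjusted p = 0.0340) and Rab8b (log2 fold change 0.90 ± 0.27 SE, edgeR adjusted p = 0.0455), where 5.03% of all genes were called, 1.87% higher and 3.16% lower. On the transcripts with the highest count, Rab40c (0.32) and Rab34 (-1.09) were not called in TurboID-PSD95 pulldowns. With replicates as blocks the Pan-TurboID count was 6, with 7.56% of all genes called, and DESeq2 gave 7, with 8.07%. With the length trend removed, Rab39b was higher and Rab34 and Rab3a lower in TurboID-PSD95 pulldowns (5.16% of all genes called) and no member was called in Pan-TurboID pulldowns (5.10%). Without replicate 3 no member was called in either, with 0.689% and 0.545% of all genes called. Of the marker lists, 1 of 6 general neuronal markers was lower in TurboID-PSD95 pulldowns.

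In knockdown neurons 6 of 44 members rose in inputs after KCl and none fell, where 19.3% of all genes were called, 8.98% higher and 10.3% lower. In their pulldowns 13 rose and 1 fell, where 22.2% of all genes were called, 10.2% higher and 12% lower. Rab39b held 25.6 and 27.2 CPM in resting inputs and 55.1 and 46.5 CPM after KCl, for 0.97 ± 0.22 (SE, edgeR adjusted p = 0.00196). Rab12 went from 87.3 and 102 to 135 and 170.3 CPM (log2 fold change 0.70 ± 0.16 SE, edgeR adjusted p = 0.00251), and Rab40c (log2 fold change 1.55 ± 0.44 SE, edgeR adjusted p = 0.0132, not called on its transcript with the highest count) and Rab33b (log2 fold change 0.77 ± 0.23 SE, edgeR adjusted p = 0.0202) rose as well. In pulldowns the smallest p values belonged to Rab33a (log2 fold change 0.88 ± 0.17 SE, edgeR adjusted p = 0.000355), Rab5b (log2 fold change 1.00 ± 0.22 SE, edgeR adjusted p = 0.00168), Rab39b (log2 fold change 1.01 ± 0.23 SE, edgeR adjusted p = 0.00179) and Rab1b (log2 fold change 0.68 ± 0.15 SE, edgeR adjusted p = 0.00183). Rab3a, at 477 and 562 CPM at rest and 439 and 416 CPM after KCl, was lower (log2 fold change -0.30 ± 0.10 SE, edgeR adjusted p = 0.0272). With the length trend removed, knockdown inputs had 2 members higher (Rab12 and Rab39b) and 5 lower (Rab1a, Rab2a, Rab3a, Rab14 and Rab21), with 16.3% of all genes called. Without either replicate, which left 1 library a group under the same assumption on spread, no member was called in knockdown inputs, with 4.81% of all genes called without replicate 1 and 4.54% without replicate 2. Their pulldowns had 16 calls when replicate 1 was dropped and 5 when replicate 2 was, with 21.5% and 20.9% of all genes called. Of 6 general neuronal markers 1 was higher and 3 lower in knockdown inputs after KCl, and 1 of 6 astrocyte and 1 of 2 vascular ones were higher. In their pulldowns 2 of 3 inhibitory neuron markers were higher, 2 of 6 astrocyte ones were higher and 1 lower, and 1 of 6 general neuronal, 2 of 6 oligodendrocyte lineage and 1 of 3 microglial ones were lower. Their part in the Rab values was not tested.

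Over the 5 KCl comparisons, Rab33a and Rab39b were called higher in 4 and Rab1b, Rab33b and Rab40c in 3. The Rab40c calls in TurboID-PSD95 pulldowns and in knockdown inputs were not made on its transcript with the highest count. Rab34 was called lower in 2 and Rab3a in 1. Once the length trend was removed, Rab39b was still called higher in 4, but Rab33a, Rab1b and Rab33b in 1 each and Rab40c in 0, while Rab34 was called lower in 2 and Rab3a in 3.

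The knockdown itself was compared between experiments at rest. No member of 49 passed by either edgeR test. By the quasi-likelihood test 3.90% of all genes were called, 1.89% higher and 2.01% lower, and 4 members had an unadjusted p under 0.05. DESeq2 called 1 member, with 6.89% of all genes called. This was Rab14, which had the smallest p in edgeR as well (log2 fold change 0.70 ± 0.22 SE, edgeR adjusted p = 0.0704). Rab14 held 96.0 and 107 CPM in knockdown and 81.3, 53.5 and 51.8 CPM in untreated inputs. With the length trend removed Rab14 was called by edgeR too, with 5.58% of all genes called. The change of the input response to KCl by knockdown called no member by either edgeR test or DESeq2, with 0.00758% of all genes called and no member with an unadjusted p under 0.05 in the quasi-likelihood test. Rab2a had the smallest p, with a difference of -0.53 ± 0.27 (SE). Of 3 inhibitory neuron markers 3 were lower in knockdown inputs, of 4 excitatory ones 2 were higher and 1 lower, of 6 astrocyte and 6 oligodendrocyte lineage ones 1 each was lower, and 1 of 3 microglial markers tested was higher, and their part in the Rab values was not tested. Knockdown and experiment cannot be told apart here, since the untreated libraries come from the KCl experiment.

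DHPG inputs were set against resting TurboID-PSD95 inputs of the KCl experiment, where treatment and experiment cannot be told apart. Of 48 members 17 were higher and 2 lower, where 32.8% of all genes were called, 16.3% higher and 16.5% lower. Rab3a held 749, 755 and 739 CPM with DHPG and 334, 375 and 367 CPM at rest, without overlap, for 1.03 ± 0.10 (SE, edgeR adjusted p = 1.53e-06). Rab33a (log2 fold change 0.90 ± 0.13 SE, edgeR adjusted p = 8.54e-05), Rab3c (log2 fold change 0.78 ± 0.12 SE, edgeR adjusted p = 0.000134) and Rab6a (log2 fold change 0.70 ± 0.11 SE, edgeR adjusted p = 0.000148) were also higher. Rab39, at 0.634 to 0.824 CPM in DHPG inputs (log2 fold change -1.72 ± 0.59 SE, edgeR adjusted p = 0.0342), and Rab34, at 2.80 to 5.23 CPM (log2 fold change -0.87 ± 0.32 SE, edgeR adjusted p = 0.0439), were lower. Marker genes moved in the same comparison. Of the 6 astrocyte markers 5 were lower, of the 6 of the oligodendrocyte lineage 4 and of the 2 of vascular cells tested 2, while 3 of 4 excitatory neuron markers were higher and 1 lower and 3 of 6 general neuronal ones were higher. Those of the oligodendrocyte lineage summed to 39.0 to 44.4 CPM in DHPG inputs and 134 to 497 CPM in inputs of the KCl experiment, those of excitatory neurons to 807 to 817 and 395 to 633 CPM. Astrocyte markers summed to 224 to 233 CPM in DHPG inputs and 503 to 1094 CPM in inputs of the KCl experiment. Their part in the Rab values was not tested. Without replicate 3, 12 members were called, all higher, with 20.8% of all genes called.

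Many Rab footprints lay in the 5′ UTR. In resting TurboID-PSD95 inputs the 5′ UTR held 46.7% ± 7.03 (SD, n = 3) of the footprints that members had in 5′ UTR and CDS together, against 19.9% ± 2.99 (SD, n = 3) over all genes. In pulldowns these shares were 18.2% ± 8.01 (SD, n = 3) and 7.52% ± 2.45 (SD, n = 3). In knockdown neurons at rest members had 35.2% ± 0.0803 (SD, n = 2) in inputs and 16.4% ± 2.42 (SD, n = 2) in pulldowns. Over all genes these shares were 15.5% ± 0.0178 (SD, n = 2) and 5.91% ± 0.612 (SD, n = 2). DHPG inputs, which had no siRNA, held 33.8% to 37.3% for members and 15.7% to 16.8% over all genes. Knockdown and DHPG libraries come from experiments of their own, and the part of the knockdown in these shares was not tested. Over the 12 inputs of the KCl experiment the median of 48 members was 44.8%, beside 25.5% for 1013 genes of equal CDS length and 20.6% for 12680 genes with a 5′ UTR. Over the 12 pulldowns these medians were 25.3%, 15.6% and 9.49%. The members' median 5′ UTR, 235 nt, was longer than that of genes of equal CDS length, 170 nt, and the part of length in the shares was not tested.

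**Figure D5:**
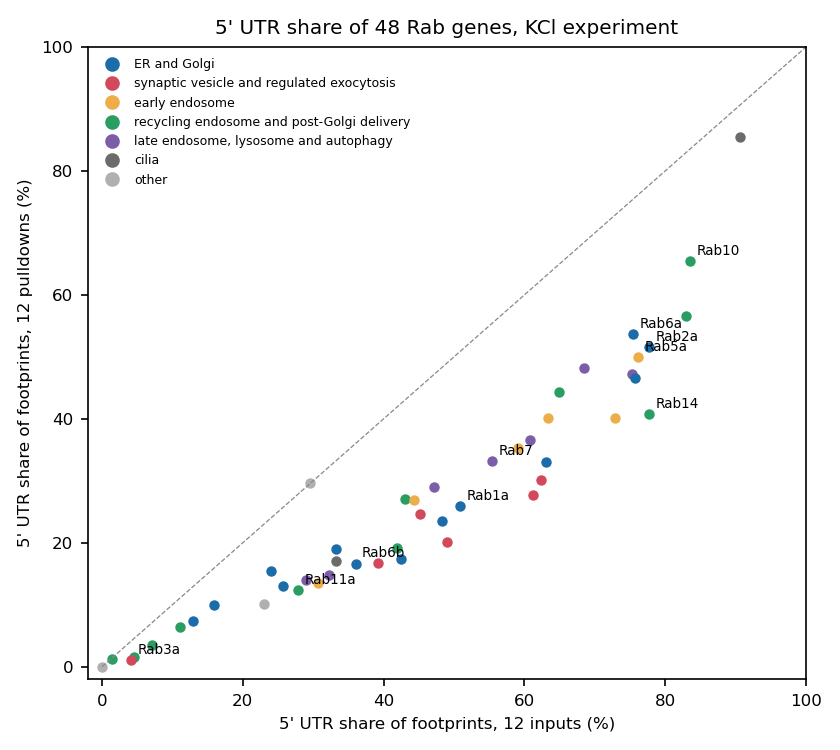
Share of each Rab gene's footprints that lay in its 5′ UTR, of those in 5′ UTR and CDS, summed over the 12 pulldowns (vertical) and the 12 inputs (horizontal) of the KCl experiment, for the 48 members tested. Points are genes coloured by role and the dashed line marks equal shares. Of the 48 points 46 lie below the line, such as Rab14 at 77.7% in inputs and 40.7% in pulldowns.

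Members differed widely in this share. Over the 12 inputs it was 83.5% for Rab10, 77.7% for Rab14, 77.7% for Rab2a, 76.2% for Rab5a and 75.4% for Rab6a, against 36.0% for Rab6b and 4.15% for Rab3a. Rab6a and Rab6b, close relatives in the protein, stood apart, with 5′ UTRs of 638 and 350 nt. In pulldowns the values were 65.4% for Rab10, 40.7% for Rab14, 51.6% for Rab2a and 1.05% for Rab3a. The bases around the start codon (capitals) are shown for 3 members with a high share and for Rab3a, with 15 bases of 5′ UTR and 9 of the CDS after it, from mm10, and the coordinates are those of the start codon.
Rab10 (chr12:3309416-3309418, minus strand, 5′ UTR of 551 nt): gagccgctcctcccaATGgcgaagaag
Rab14 (chr2:35192670-35192672, minus strand, 5′ UTR of 368 nt): ccccccagtgccaccATGgcaactgca
Rab2a (chr4:8535863-8535865, plus strand, 5′ UTR of 219 nt): ggagcggccgcggccATGgcgtacgcc
Rab3a (chr8:70755856-70755858, plus strand, 5′ UTR of 346 nt): ccacgcctcccgcagATGgcttccgcc
Footprints were placed by their 5′ ends without an offset, so ribosomes on the first codons are counted in the 5′ UTR, and what this adds to the shares was not tested. After KCl, no member of 45 passed in 5′ UTR counts of inputs by either edgeR test or DESeq2. By the quasi-likelihood test 0.443% of all genes were called and 3 members had an unadjusted p under 0.05. Rab5b had the smallest p (0.77 ± 0.36 SE), and the members' median was 0.29 against 0.17 over all genes. The study reports more 5′ UTR footprints after depolarization in dendritic pulldowns and no global change in inputs. Pulldown 5′ UTR counts were not tested here. In TurboID-PSD95 pulldowns the members' share was 12.8% to 27.4% at rest and 15.2% to 39.0% after KCl, with overlap. Over all genes it was 5.71% to 10.3% and 5.31% to 18.7%.

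The proteins that load, unload and read Rabs gave other counts. Of 102 listed genes 101 were found and 99 tested. In resting TurboID-PSD95 pulldowns 9 were higher and 7 lower than in input, with a median of 0.10, near the shares over all genes (6.93% higher and 7.24% lower). Exchange factors had 6 of 28 higher (median 0.34), among them Dennd6b, an activator of Rab14, at 1.43, and Rab3gap1 (0.92) and Rab3gap2 (0.79). The names of these 2 mark them as GTPase activating proteins of Rab3. They were listed here for the exchange activity of their complex for Rab18. Effectors had 1 of 32 higher and 6 lower (median -0.41). The Rab5 effectors Eea1 (-1.03) and Rabep1 (-0.87) and the Rab11 effector Rab11fip5 (-0.98) were lower, while Myo5a, a motor that Rabs recruit, was higher (0.69). GTPase activating proteins had 1 of 31 in each direction, and the 8 genes of escort, prenylation and extraction had 1 higher. After KCl, 19 of these 99 genes fell in inputs and 2 rose, with a median of -0.29, where 9.03% of all genes were lower and 6.32% higher. Sbf1 (-1.35) and Dennd5a (-1.29), both exchange factors, and Rims1, the active zone effector of Rab3 (-1.01), were among those that fell. These KCl values carry no length correction. Once the length trend was removed, 14 fell and 7 rose, with a median of -0.12, where 6.91% of all genes were lower and 6.94% higher, and Sbf1 (-1.10), Dennd5a (-1.07) and Rims1 (-0.77) were still called lower.

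Other small GTPases of like length are given for reference, from lists chosen with these results known. In resting TurboID-PSD95 pulldowns 11 of 23 Arf, Arl and Sar1 genes were higher and none lower (median 0.82), and 4 of 21 Ras, Rap, Ral and Rheb genes (0.42), beside 17 of 48 Rab genes (0.66). In inputs after KCl, 13 of 23 Arf, Arl and Sar1 genes rose, where 6.32% of all genes and 84 of 1034 genes of 600 to 780 nt did. Removing the length trend left 3 of 23, where 6.94% of all genes did.

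Some members share sequence with other loci, and how the authors treated reads that align in several places is not given in the sources used here. Of all 25-base words of a CDS, members shared at most 4.44% with other members, while 10 members shared over 25% with another gene or pseudogene, among them Rab11b (95.6%), Rab4b (93.5%), Rab5b (84.0%), Rab7 (69.2%), Rab43 (67.8%), Rab2a (45.9%) and Rab5a (31.6%). Their values are uncertain to that extent. The use of strand is not given either, and for Rab24 79.1% of the CDS overlaps Prelid1 on the opposite strand, for Rab39b 44.1% overlaps Gm15063 and for Rab40c 60.2% overlaps Gm16278.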

How the data were processed

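Deposited files gave, per library and segment, whole-number counts of footprint 5′ ends, counts per nucleotide (a signal) and RPKM. The authors trimmed adapters and cut molecular identifiers, aligned reads to mm10 with Rsubread and counted with plastid, without an offset. Per the file headers, lengths were 25 to 100 nt, and ribosomal reads and duplicates were removed. Only counts were used, and deposited RPKM and coverage signal per nucleotide were not. Of 67238 coding transcripts, 66750 matched a GENCODE symbol, and the longest transcript stood for each gene.

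CDS counts were tested with edgeR 4.0.16 (R 4.3.3), its quasi-likelihood F test, TMM scaling, filterByExpr and Benjamini-Hochberg adjustment over all genes at an FDR of 0.05, after a test on simulated data. SEs came from the fold change and F. All 24 libraries of both baits entered 1 fit, and DHPG and knockdown had fits of their own. Comparisons between experiments used joint fits, in which all groups shared the estimate of spread. DHPG was fitted with resting TurboID-PSD95 libraries, and knockdown with TurboID-PSD95 libraries of the KCl experiment. For pulldown over input, each library's lowess trend with log2 CDS length (span 0.3) entered as an offset. A paired fit used the replicate number as a block. Unless a pair or block is named, counts, SEs and p values came from fits without it. In the KCl experiment pulldown and input of the same number deviated together (r 0.350 to 0.713 over 7693 genes in all 12 pairs), so these numbers mark pairs. Alternatives were DESeq2 1.42.0, the likelihood ratio test of the study's methods, RLE factors, another transcript, no filter, the length trend and leaving out replicates. The study's methods call replicates biological, and the labels do not say what a replicate number marks. No 2 replicates agreed within sampling noise (chi-square per gene 1.48 to 47.5). The value was 1.48 to 1.90 between DHPG inputs and 8.61 to 47.5 within groups of the KCl experiment.

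The members and lists were chosen with earlier results of these data known. In each comparison the text names at most 4 called members per direction by smallest p, or the smallest p where none passed. The Rab3, Rab5, Rab11 and Rab27 paralogues, Rab7, the 5 highest and 3 lowest densities, Eif4g2 and Dlg4 were always named. Rab12 in the resting TurboID-PSD95 comparison, members listed to complete a count and Rab cycle genes were named after their values were seen.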

Additional observations from a re-analysis of the deposited data

How the results depend on the processing

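Numbers here are members called. With the length trend kept, 12 of the 43 members called in DHPG pulldowns turned direction, 5 of them called lower, and 4 and 5 called in knockdown pulldowns at rest and after KCl turned without a call. No other called member turned under any alternative. Of values of single named members 461 stayed on their side of the threshold or, for densities, within 1 SD, while 110 lost the call and 2 gained it. Of counts of members called, 119 stayed within 1.5 times the reported count, 40 fell below that range and 16 rose above it. A count within that range can hold other members. With the length trend removed, KCl in knockdown inputs called 2 higher and 5 lower in place of 6 higher. KCl inputs: 11 as reported, 2 with the length trend removed, 3 without a filter on low counts (9.92% of all genes called), 0 to 6 without single replicates. KCl TurboID-PSD95 pulldowns: 5 as reported, 3 on the transcript with the highest count (6.99%), 3 with the trend removed, 2 without a filter (4.18%), 0 to 4 without single replicates. KCl Pan-TurboID pulldowns: 3 as reported, 7 by DESeq2, 5 by the likelihood ratio test (7.01%), 6 with the replicate block, 0 with the trend removed, 0 without a filter (3.16%), 0 to 1 without single replicates. TurboID-PSD95 pulldown over input at rest: 17 as reported, 28 with the block, 7 with the length trend kept, 0 to 18 without single replicates. The same after KCl: 2 as reported, 10 by DESeq2 (10.4% of all genes called), 7 by the likelihood ratio test (8.24%), 19 with the block, 14 against the mean of both inputs (10.6%), 1 without a filter, 0 with the trend kept, 0 to 1 without single replicates. Pan-TurboID pulldown over input at rest: 4 as reported, 11 by DESeq2 (7.93% of all genes called), 10 by the likelihood ratio test (5.76%), 22 with the block, 0 with the trend kept, 0 to 6 without single replicates. The same after KCl: 1 as reported, 9 by DESeq2 (8.16%), 6 by the likelihood ratio test (5.6%), 20 with the block, 0 with the trend kept, 0 without a filter and 0 without any single replicate. Knockdown pulldown over input: 27 at rest and 34 after KCl as reported, 11 and 16 with the trend kept, 12 to 14 and 22 to 28 without single replicates, where lone libraries were assumed to vary like the other groups. DHPG inputs: 19 as reported, 12 to 15 without single replicates. KCl in knockdown: 6 in inputs and 14 in pulldowns as reported, 0 and 5 to 16 without single replicates. Knockdown against untreated inputs: 0 as reported, 1 by DESeq2 and 1 with the trend removed. The median density was 25.4 CPM per kb, or 35.7 CPM per kb on the transcript with the highest count. The causes were not tested. In DHPG (r -0.229 to 0.0643), knockdown (-0.00142 to 0.0242) and between depolarized and resting libraries (-0.181 to 0.423) same-numbered libraries did not deviate together in every pair, and a replicate block gave 42 members in place of 43 for DHPG pulldowns, 13 in place of 19 for DHPG inputs, and 23 in place of 27 for resting knockdown pulldowns. Beyond the counts given above with the block, it changed none by over 1.5 times. Depth limits members of a few CPM, where 1 library decides a value.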
